A study of Homo sapiens with 19 samples.

Results

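The clustered histone genes of MDA-MB-231 cells are described here, across growth as adherent cells or spheres and across knockdown of SCIRT or EZH2. Members were all genes annotated as protein coding in the deposited tables whose symbol starts with HIST1H, HIST2H, HIST3H or HIST4H. There were 45 such genes among the 30710 genes listed in any of the 3 tables, and 27 of them were listed in all 3. By type they were 3 linker histones (H1) and, of the core histones, 11 H2A, 13 H2B, 8 H3 and 10 H4 genes. By cluster, 35 belonged to HIST1 on chromosome 6, 8 to HIST2 and 1 to HIST3 on chromosome 1, and 1 to HIST4 on chromosome 12.

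MDA-MB-231 is an established human triple-negative breast cancer line, and all 19 libraries came from this 1 line. Adherent cells were grown in DMEM with FCS (n = 2), and spheres for 16 h (n = 2) or 5 d (n = 2) in suspension in DMEM/F12 to which B27, EGF and FGF were added, so that attachment, medium, serum and growth factors changed together and cannot be told apart. The other libraries came from cells reverse transfected with siRNA and kept in the sphere medium for 48 h: siSCIRT#1, siSCIRT#2 and the control siNC with 3 libraries each, and siEZH2 and a separate siNC with 2 libraries each. SCIRT is a long non-coding RNA and EZH2 the methyltransferase of a Polycomb repressive complex. Whether replicates came from separate cultures is not in the labels, so the spread behind each p-value is that between libraries and may be technical.

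Nucleosomes are built from the core histones H2A, H2B, H3 and H4, and the linker histone H1 binds the DNA between them. Most clustered histone genes are transcribed in S phase, when new DNA must be packaged. Their usual mRNA has no poly(A) tail but ends just after a conserved stem-loop, which the stem-loop binding protein SLBP holds during processing, export and translation. Some of these genes also make longer, polyadenylated transcripts from a site beyond the stem-loop, mainly in cells that have left the cell cycle. The library kit used here, TruSeq RNA v2, selects poly(A) RNA, which favours such longer transcripts.

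The stem-loop was looked for in the GENCODE 29 transcripts of the members on the transcript's own strand, as 16 bases that start with GG and end with CC around a TTNTNA core, with any 3 bases on either side of that core. All 45 members were matched by symbol, but only 24 of them by gene ID too. A stem-loop was found in 21 members, and in 20 of them the 6 bases on each side of the loop can pair. Over all 19684 protein-coding genes of that annotation the pattern was found in 6.43%, and in 0.305% with a paired stem. The forms that occurred in members with the most reads are printed here with 5 bases on either side, as DNA letters, with the stem-loop in capitals.
HIST1H2AC: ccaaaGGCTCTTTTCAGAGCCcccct
HIST1H2BC: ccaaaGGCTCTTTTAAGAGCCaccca
HIST1H2BD: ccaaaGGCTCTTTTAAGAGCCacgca
HIST2H2BE: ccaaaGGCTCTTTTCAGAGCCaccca
HIST1H4H: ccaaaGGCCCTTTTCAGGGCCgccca
The stem of the H4 genes differed from that of the others: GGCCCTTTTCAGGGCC occurred in 4 H4 genes and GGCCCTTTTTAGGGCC in 3, while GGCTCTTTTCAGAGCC occurred in 3 H2A, 5 H2B and 1 H3 gene. HIST1H2BC and HIST1H2BD shared the form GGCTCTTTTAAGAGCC with HIST3H3.

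The annotated transcripts ran on past the stem-loop by very different lengths. The longest stretch after it was 1729 bases in HIST2H2BE, 1655 in HIST1H4H, 1479 in HIST2H2BF and 1128 in HIST1H2AC, against 116 in HIST1H2BC and 39 in HIST1H2BD. Only transcripts that hold the stem-loop entered here. HIST1H2BD has 2 annotated transcripts, 1 of them with the stem-loop, and the longest is 789 bases. In 14 members 100 or more bases followed the stem-loop, with a median of 753 reads over all libraries, and 10 of the 14 had enough reads to be tested in at least 1 table. In 7 members fewer than 100 bases followed, with a median of 69 reads, and 4 of these were tested. The other 24 members, 10 of them tested, had no stem-loop in their annotated transcripts and a median of 82 reads. The highest member had 51305 reads in the first class, 33890 in the second and 109962 in the last. HIST1H2BK, with 109962 reads the most of all members, belongs to that last group, and its annotated transcript is 381 bases long. That length recurred in HIST1H2BB, HIST1H2BM and HIST1H2BO of the group, and 411 bases in HIST1H3A, HIST1H3B and HIST1H3C. Such short models may end before a stem-loop would follow, so a stem-loop not found in them need not be absent from the gene. Not all models of the group were short, as HIST1H2BJ had 3 transcripts of up to 950 bases. All transcript models used here come from another annotation than the one the tables were counted on, which is not given in the sources used here.

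H2A and H2B genes often lie head to head, so that 1 stretch of DNA serves as promoter for both. Promoters, taken as the 250 bases before to 50 bases after each start in RefSeq (GRCh38.p14), were at hand for 41 of the 45 members. They were searched on both strands for the octamer ATTTGCAT, which POU factors bind, for TATAAA and for CCAAT. The octamer was found in 7 of 10 H2A and 10 of 13 H2B promoters and in none of the H1, H3 or H4 promoters, against 1.77% of all 35116 promoters. On the gene's own strand it was in 1 of 10 H2A and 9 of 13 H2B promoters, and head-to-head genes can share 1 match. TATAAA was found in 9 of 10 H2A, 11 of 13 H2B, 6 of 7 H3, 4 of 8 H4 and 1 of 3 H1 promoters, against 11.5% of all. CCAAT was found in every H1, H2A, H2B and H3 promoter but in 1 of 8 H4 promoters, against 34.6% of all. A match is only a description of the letters. The whole stretch between the starts of 2 head-to-head pairs, and the promoters of HIST1H2BK and HIST1H2BD, are shown because most of the reads counted for these histones came from their genes. Octamer, TATAAA and CCAAT are in capitals on whichever strand they lie.
HIST1H2BC/HIST1H2AC: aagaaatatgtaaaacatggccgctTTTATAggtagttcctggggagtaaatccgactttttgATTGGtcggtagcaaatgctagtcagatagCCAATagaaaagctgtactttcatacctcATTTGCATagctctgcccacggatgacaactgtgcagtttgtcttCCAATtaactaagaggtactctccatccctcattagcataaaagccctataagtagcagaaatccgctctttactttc
HIST2H2BE/HIST2H2AC: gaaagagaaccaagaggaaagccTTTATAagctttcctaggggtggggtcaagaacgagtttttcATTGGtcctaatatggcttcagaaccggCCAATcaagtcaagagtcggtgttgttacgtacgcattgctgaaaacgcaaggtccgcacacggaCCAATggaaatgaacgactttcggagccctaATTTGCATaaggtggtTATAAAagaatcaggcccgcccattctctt
HIST1H2BK: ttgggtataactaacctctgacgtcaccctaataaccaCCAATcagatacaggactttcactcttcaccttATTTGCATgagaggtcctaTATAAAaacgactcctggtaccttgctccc
HIST1H2BD: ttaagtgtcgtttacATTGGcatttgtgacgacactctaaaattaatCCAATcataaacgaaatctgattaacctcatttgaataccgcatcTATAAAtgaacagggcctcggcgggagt
The first stretch (chr6:26123927-26124171) and the second (chr1:149886683-149886917) are 245 and 235 bases long and are read on the minus strand, from the H2A start to the H2B start. The HIST1H2BK stretch (chr6:27146856-27146975, minus strand) and the HIST1H2BD stretch (chr6:26158001-26158120, plus strand) are 120 bases each. HIST1H2BK holds the octamer and HIST1H2BD does not.

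Depth differed between the tables, with 6104222 to 14781941 reads per library for culture, 38635418 to 62218847 for siSCIRT and 27989577 to 38955312 for siEZH2. Of the defining markers, VIM, CD44 and EGFR were read in every group, while group means of ESR1 were at most 9.83 normalized counts and those of PGR at most 1.38 where it was listed. EPCAM and ERBB2 were nevertheless measurable, at 91.8 and 696 normalized counts in adherent cells. Markers of blood, endothelial and stromal cells summed to 79.2 to 84.0 normalized counts in adherent cells, 83.1 to 89.5 at 16 h and 102 to 121 at 5 d, with 4 of the 8 listed and PTPRC, the common leukocyte antigen, at 0 in both 16 h libraries. Within that sum COL1A1, a collagen of stromal cells, went from a mean of 12.6 in adherent cells to 59.8 at 16 h and 44.8 at 5 d, and PDGFRB, a receptor of stromal cells, from 55.2 to 25.8 and 58.3. In the deeper siSCIRT table the markers of other cells summed to 1166 to 1442 normalized counts per library, controls included. In the siEZH2 table they summed to 749 to 1097. The part of these markers in the histone results was not tested. SCIRT, listed as RP5-1120P11.1, stood at 269 ± 16.1 normalized counts in its siNC libraries (SD, n = 3), at 120 ± 7.63 under siSCIRT#1 and at 127 ± 28.6 under siSCIRT#2. EZH2 itself was read at 524 ± 7.89 in its siNC libraries (n = 2) and at 276 ± 1.89 under siEZH2. In the SCIRT knockdown EZH2 was called lower as well, like SCIRT, with siSCIRT#1, with siSCIRT#2 and for the mean of both (limma). Only the siSCIRT#2 columns carry the number of their siRNA, so the siSCIRT#1 columns were assigned by elimination.

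All histone members together took 0.0241% to 0.0494% of the reads of a culture library, so most single genes were shallow. A member was tested in a table where its mean normalized count, which is its reads divided by the library's size factor, was at least 10. That held for 11 of the 27 members listed in the culture table, 22 of 44 in the siSCIRT table and 19 of 44 in the siEZH2 table. Tested in all 3 tables were HIST1H1C, HIST1H1E, HIST1H2AC, HIST1H2BC, HIST1H2BD, HIST1H2BJ, HIST1H2BK, HIST1H2BN, HIST1H4H, HIST2H2BE and HIST2H2BF, which is 1 H4, 1 H2A, 2 H1 and 7 H2B genes and no H3 gene. A further 6 members were tested in 2 tables, 7 in 1 and 21 in none. HIST1H2BK alone took 45.4% to 60.9% of the histone reads in the culture libraries and 42.8% to 49.6% in the siSCIRT libraries. Members that passed only because 1 group was high had to differ, so counts of called members below are descriptions.

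In 16 h spheres most of the measured histone genes were higher than in adherent cells, by 2.02-fold for HIST1H2BK, 3.1-fold for HIST1H2AC and 4.62-fold for HIST2H2BE. As a share of all reads the members stood at 0.0242% and 0.0241% in the adherent libraries, at 0.0487% and 0.0494% at 16 h, and at 0.0292% and 0.0269% at 5 d. The 16 h libraries were thus the highest, and the 3 groups did not overlap. Of the 11 members tested, 9 rose and none fell between adherent cells and 16 h spheres at an adjusted p under 0.05 (limma, Benjamini-Hochberg over all 13789 genes tested), where 27.4% of all genes rose and 26.5% fell. The median log2 fold change was 1.58 over the 11 members and -0.01 over all genes. All 11 had groups that did not overlap, as had 77% of all genes. With no filter on low values 8 rose and none fell among all 27 listed members, whose median log2 fold change was 1.08.

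**Figure D1:**
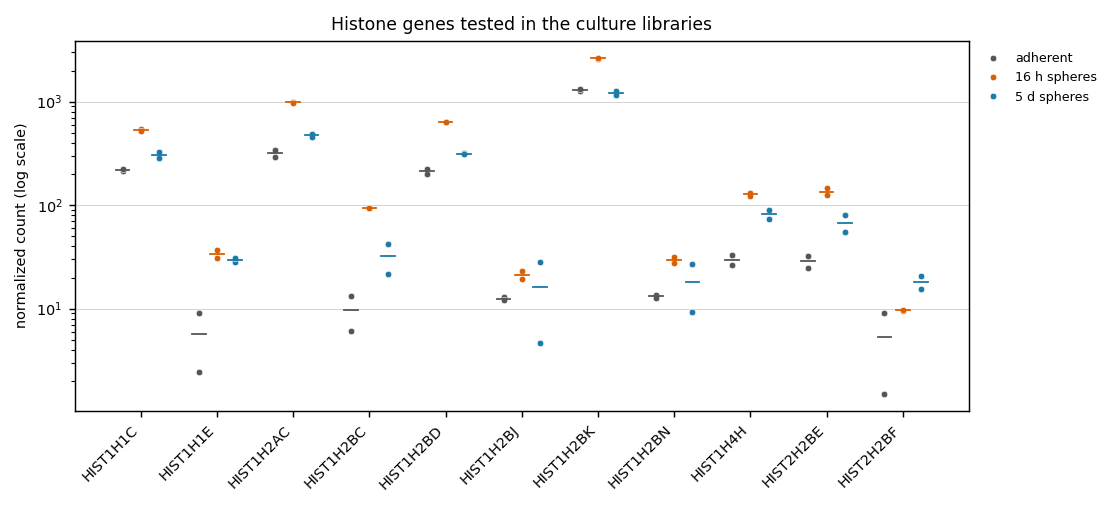
Normalized counts (log axis) of the 11 histone genes tested in the culture libraries, with 1 point per library and the group mean as a line. For HIST1H1C, HIST1H2AC, HIST1H2BD, HIST1H4H and HIST2H2BE both 16 h libraries lie above both 5 d libraries, and these above both adherent libraries, while HIST1H2BK is high at 16 h only.

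Among the linker histones, HIST1H1C, which encodes H1.2, stood at 216 and 225 normalized counts in adherent cells, 544 and 522 at 16 h, then 285 and 330 at 5 d. The 16 h value was higher by 1.27 ± 0.11 on the log2 scale (SE, adjusted p 2.31e-12) and the 5 d value by 0.47 ± 0.11 (adjusted p 0.000457). HIST1H1E, which encodes H1.4, was read thinly, with 12 and 4 reads in the adherent libraries, 29 and 30 at 16 h and 27 and 20 at 5 d. Its normalized counts were 9.06 and 2.44, then 30.9 and 36.6, then 27.9 and 30.8. Both sphere times lay above the adherent cells, by 2.56 ± 0.48 at 16 h (adjusted p 2.27e-05) and 2.37 ± 0.48 at 5 d, but its adherent mean was under the filter. Without adherent replicate 1 these differences were 3.33 and 3.14, and without adherent replicate 2 they were 1.79 and 1.59.

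The 1 H2A gene tested, HIST1H2AC, stood at 341 and 295 normalized counts in adherent cells, 992 and 980 at 16 h, then 492 and 451 at 5 d. It rose 3.1-fold by 16 h (log2 fold change 1.63 ± 0.09, adjusted p 3.62e-18) and was still 1.48-fold higher at 5 d (0.57 ± 0.09). Its head-to-head partner HIST1H2BC had 8 and 22 reads in the adherent libraries, 88 and 77 at 16 h and 41 and 14 at 5 d. In normalized counts that was 6.04 and 13.4, 93.8 and 94.0, and 42.4 and 21.6. This H2B gene showed the largest change of the 11 members at 16 h, 3.24 ± 0.38 on the log2 scale (adjusted p 3.26e-09), from an adherent mean under the filter, and stood 1.64 ± 0.38 above adherent cells at 5 d. With 1 library left out these changes ran from 2.72 to 3.75 at 16 h and from 1.12 to 2.15 at 5 d.

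HIST1H2BK and HIST1H2BD are H2B genes known to make polyadenylated transcripts as well. HIST1H2BK stood at 1278 and 1321 normalized counts in adherent cells, 2574 and 2669 at 16 h, then 1257 and 1151 at 5 d. It was 2.02-fold higher at 16 h (log2 fold change 1.01 ± 0.05, adjusted p 6.29e-19), while its change at 5 d was -0.11 ± 0.05 (adjusted p 0.0733). That 5 d change passed the test, as a fall, under quantile normalization (-0.14, adjusted p 0.0319) and without 5 d replicate 1 (-0.17, adjusted p 0.0105). HIST1H2BD stood at 223 and 201, then 637 and 635, then 316 and 310, which is 3-fold higher at 16 h (1.58 ± 0.11 on the log2 scale, adjusted p 1.43e-15) and 1.48-fold higher at 5 d (0.56 ± 0.11).

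HIST2H2BE, an H2B gene of the HIST2 cluster, stood at 32.5 and 25.0 normalized counts in adherent cells, 126 and 145 at 16 h and 54.9 and 80.1 at 5 d. It was 4.62-fold higher at 16 h (log2 fold change 2.21 ± 0.26, adjusted p 2.93e-09) and 2.28-fold higher at 5 d (1.19 ± 0.26). HIST1H4H, the 1 H4 gene tested, stood at 33.2 and 26.2, then 132 and 123, then 89.0 and 73.9, and was 4.22-fold higher at 16 h (2.08 ± 0.25, adjusted p 3.32e-09) and 2.69-fold higher at 5 d (1.43 ± 0.25).

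The 3 shallowest H2B genes gave less firm values. HIST1H2BN stood at 13.6 and 12.8 normalized counts in adherent cells, 27.7 and 31.8 at 16 h and 26.9 and 9.24 at 5 d. Its rise at 16 h (log2 fold change 1.11 ± 0.47, adjusted p 0.0422) did not pass with DESeq2 (adjusted p 0.0971), without the filter (0.0536) or without any 1 of the 4 libraries compared. Its exons overlap those of HIST1H2AK on the other strand over 393 bases, and the kit does not mark strand, so that their reads cannot be told apart. HIST2H2BF had 2 and 15 reads in the adherent libraries, 9 and 8 at 16 h and 20 and 10 at 5 d. Its group means were 5.32, 9.68 and 18.1 normalized counts, so only the 5 d group took it over the filter of 10. It passed at 5 d (1.90 ± 0.64, adjusted p 0.0116) but not at 16 h (1.08 ± 0.64, adjusted p 0.157), and not at 5 d without adherent replicate 1 (0.90, adjusted p 0.338), without 5 d replicate 1 or with DESeq2; without adherent replicate 2 it passed at 16 h (2.09, adjusted p 0.0354). HIST1H2BJ stood at 12.8 and 12.2, then 19.2 and 23.2, then 27.9 and 4.62, and did not pass at either time.

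In 5 d spheres 8 of the 11 members were higher than in adherent cells and none was lower (limma), where 26.3% of all genes were higher and 28.9% lower. The comparison shares its adherent libraries with the one at 16 h. HIST2H2BF, 1 of the 8, reached the filter only through the 5 d libraries. The members' median log2 fold change was 0.57 against -0.02 over all genes, and 0.98 without 5 d replicate 2. Members whose groups did not overlap numbered 9, where 77.7% of all genes did not overlap.

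Set directly against 16 h spheres, 7 of the 11 members were lower in 5 d spheres and none was higher (limma), where 25.5% of all genes were lower and 22.8% higher. The fall was -1.12 ± 0.05 on the log2 scale for HIST1H2BK (adjusted p 4.3e-20), -1.06 ± 0.09 for HIST1H2AC, -1.02 ± 0.11 for HIST1H2BD and -1.02 ± 0.26 for HIST2H2BE. These 4 genes stood at 0.459 to 0.494 of their 16 h level. HIST1H2BC was lower by -1.60 ± 0.38 and HIST1H1C by -0.80 ± 0.11. HIST1H4H was lower by -0.65 ± 0.25 (adjusted p 0.028), a call lost with DESeq2 (adjusted p 0.0775) and without either 16 h library or 5 d replicate 2. HIST1H1E (-0.19 ± 0.48, adjusted p 0.774) and HIST2H2BF (0.82 ± 0.64, adjusted p 0.303) did not pass. Without 5 d replicate 1, HIST1H2BJ (-1.98) and HIST1H2BN (-1.58) were called lower too. Groups of 10 members did not overlap, as for 71% of all genes, and the members' median of -0.86 became -0.30 when all 27 listed members entered.

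Genes of S phase moved against the histone genes in the culture libraries. Of 24 such genes, among them PCNA and the MCM helicase subunits, 23 fell and none rose by 16 h (median log2 fold change -1.72), with CDC6 at -3.06 ± 0.11 and MCM3 at -1.58 ± 0.06. Over all genes 26.5% fell and 27.4% rose by 16 h. By 5 d 20 of the 24 were lower than in adherent cells (median -1.02), where 28.9% of all genes were. From 16 h to 5 d 20 rose and 1 fell (median 0.56), against 22.8% and 25.5% of all genes. The summed normalized count of the 24 was 15636 to 15782 in adherent cells, 5569 to 5602 at 16 h and 7994 to 8128 at 5 d. In bulk RNA, fewer cells in S phase and less of such RNA per cell cannot be told apart.

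SLBP was lower at 16 h, with a log2 fold change of -0.41 ± 0.08 (adjusted p 5.49e-05), and stood at 862 ± 22.2, 648 ± 59.1 and 544 ± 48.4 normalized counts in the 3 culture groups (SD, n = 2). NPAT, the coactivator of histone gene transcription, had a change of 0.07 ± 0.15 at 16 h (adjusted p 0.709). Of 17 genes of histone mRNA transcription and processing, 2 rose and 5 fell at 16 h, where 27.4% of all genes rose and 26.5% fell. Among 15 histone chaperone genes 4 rose and 7 fell. The replication-coupled CHAF1A and ASF1B changed by -1.87 ± 0.12 and -2.19 ± 0.16, and ATRX of the same list by 1.31 ± 0.06. Of 10 tested histone genes outside the clusters, 3 rose and 6 fell at 16 h (median -0.43). H1F0, the linker histone H1.0, rose by 0.58 ± 0.05 and H2AFZ, which encodes H2A.Z, fell by 0.66 ± 0.04 on the log2 scale.

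Several RNAs that carry no poly(A) tail also moved between the culture groups, in another order than the histone genes. RN7SK, a small nuclear RNA that holds back transcription elongation, stood at 35.2 ± 2.78 normalized counts in adherent cells, 864 ± 4.18 at 16 h and 1349 ± 22.4 at 5 d (SD, n = 2). All 5 tested RNAs of a list of 9 such RNAs rose at both times, with a median log2 fold change of 3.38 at 16 h and 5.08 at 5 d. Over all genes 27.4% rose at 16 h and 26.3% at 5 d. Of 10 listed genes annotated as snRNA and 19 as snoRNA, only 1 and 2 had enough reads to be tested. At 16 h the tested snRNA was not called (log2 fold change 0.21), and 1 of the 2 snoRNAs fell. All listed genes of both types took their lowest shares of reads at 16 h. For snRNA these were 0.000556% to 0.000590%, against 0.000690% to 0.000726% in adherent cells. For snoRNA the shares were 0.000216% to 0.000288% against 0.000568% to 0.000634%. Mitochondrial genes took 6.83% to 6.89% of reads in adherent cells, 8.55% to 8.56% at 16 h and 9.65% to 9.74% at 5 d. The listed RNAs without poly(A) tail and the mitochondrial share were thus highest at 5 d, whereas the histone share was highest at 16 h. The part of these measures in the histone result was not tested, nor was that of poly(A) selection.

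**Figure D2:**
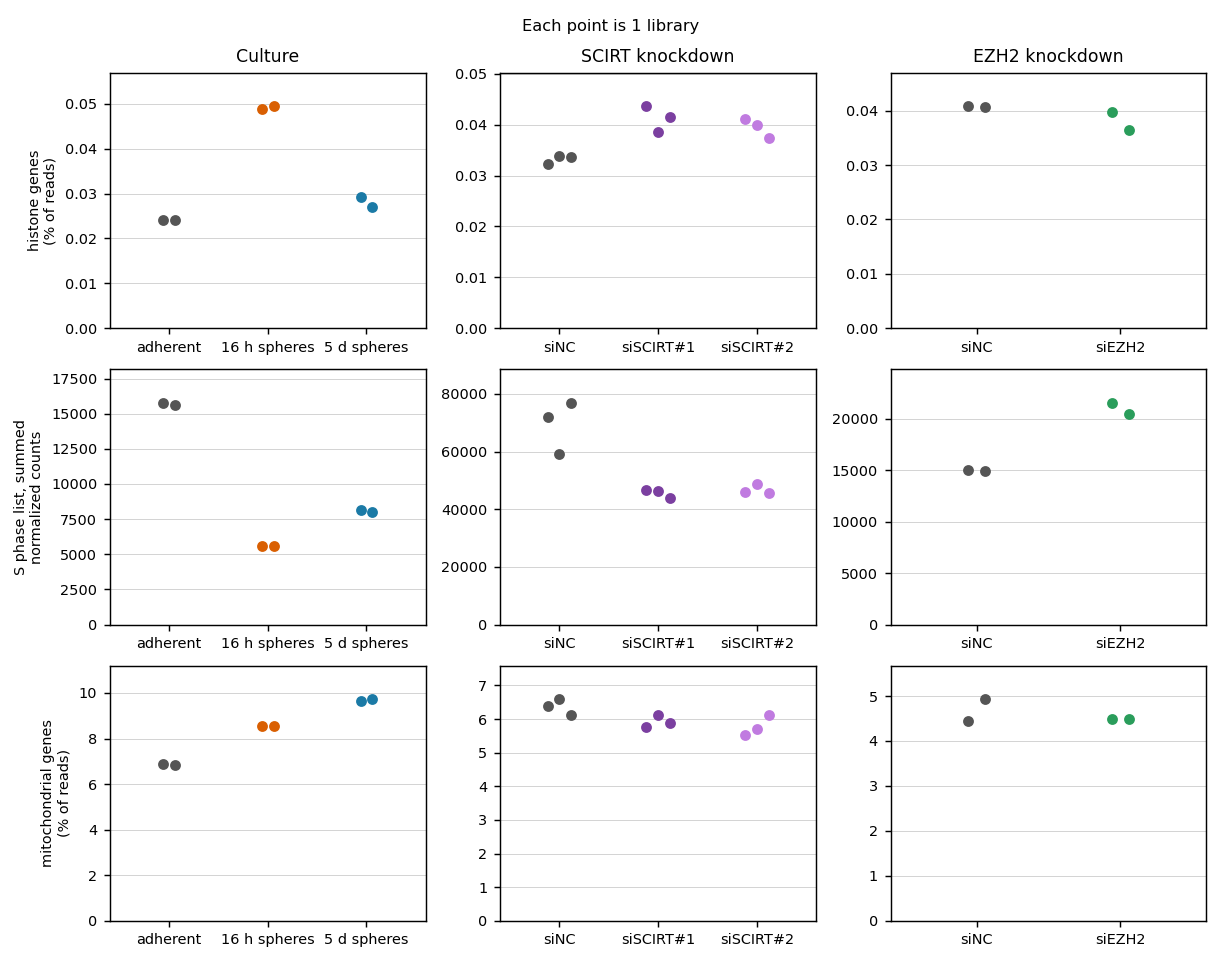
Histone genes as a percent of reads (top), summed normalized counts of the S phase genes (middle) and mitochondrial genes as a percent of reads (bottom), with 1 point per library and 1 column per table. The groups' histone share and S phase sum, which are in different units, run in opposite order in the culture column, and from siNC to knockdown in the siSCIRT and siEZH2 columns. As summed normalized counts, not shown, the histone genes of siEZH2 (12851.3 to 13842.4) and its siNC (13365.5 to 13993.9) overlap. Mitochondrial share runs from 6.83% in adherent cells to 9.74% at 5 d.

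Under SCIRT knockdown 4 histone genes rose and none fell. The members took 0.0323% to 0.0339% of reads in the siNC libraries, 0.0385% to 0.0436% under siSCIRT#1 and 0.0373% to 0.0412% under siSCIRT#2, and each knockdown lay above the control without overlap. Of the 22 members tested, 4 rose with siSCIRT#1 (limma), where 4.63% of all 16607 genes rose and 5.56% fell, and 3 with siSCIRT#2, where 4.49% rose and 5.05% fell. For the mean of both siRNAs 4 rose, against 6.82% of all genes, and 7.58% of all genes fell. Both siRNAs were compared with the same siNC libraries. The median log2 fold change of the members was 0.25 for the mean of both, against 0.01 over all genes.

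The H2A gene HIST1H2AC stood at 3162, 3406 and 2810 normalized counts in the siNC libraries, 4436, 3938 and 4159 under siSCIRT#1 and 4085, 3986 and 3663 under siSCIRT#2. Every knockdown library lay above every control, and the mean of both was higher by 0.37 ± 0.07 on the log2 scale (adjusted p 0.00171). Alone, siSCIRT#2 gave 0.33 ± 0.08 (adjusted p 0.0166), which did not pass without siNC replicate 3 (0.25, adjusted p 0.0992), siSCIRT#2 replicate 1 (adjusted p 0.0608) or siSCIRT#2 replicate 2 (adjusted p 0.0532). The other tested H2A genes, HIST1H2AG, HIST1H2AI, HIST1H2AK and HIST2H2AC, had changes between -0.37 and 0.35 and did not pass.

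Among the H2B genes, HIST1H2BD stood at 1938, 2102 and 1974 normalized counts in the siNC libraries, 3098, 2704 and 2826 under siSCIRT#1 and 2812, 2802 and 2644 under siSCIRT#2. It had the smallest p of all members here, with a log2 fold change of 0.49 ± 0.06 for the mean of both (1.4-fold, adjusted p 8.35e-05), 0.52 ± 0.07 for siSCIRT#1 and 0.46 ± 0.07 for siSCIRT#2. HIST2H2BE stood at 591, 690 and 616 in the siNC libraries, 793, 757 and 770 under siSCIRT#1 and 838, 867 and 893 under siSCIRT#2, and was higher by 0.37 ± 0.07 for the mean of both (adjusted p 0.00319). Its value for siSCIRT#1 alone, 0.29 ± 0.09 (adjusted p 0.0405), did not pass without the filter (adjusted p 0.0785) or in 6 of the 9 fits that left out 1 library, with adjusted p up to 0.167 without siNC replicate 1.

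HIST1H2BK was not called. It stood at 8034, 8054 and 8768 normalized counts in the siNC libraries, 10627, 8582 and 9464 under siSCIRT#1 and 9582, 8895 and 8545 under siSCIRT#2, so that the groups overlapped (log2 fold change 0.16 ± 0.07 for the mean of both, adjusted p 0.134). HIST1H2BC (0.18 ± 0.09), HIST1H2BJ (0.28 ± 0.11) and HIST1H2BN (0.29 ± 0.15) did not pass either.

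Of the H4 genes, HIST1H4H stood at 561, 594 and 491 normalized counts in the siNC libraries, 706, 709 and 809 under siSCIRT#1 and 657, 661 and 637 under siSCIRT#2. It was higher by 0.34 ± 0.08 for the mean of both (adjusted p 0.012) and by 0.43 ± 0.10 for siSCIRT#1, while siSCIRT#2 alone gave 0.25 ± 0.10 (adjusted p 0.122). Without siNC replicate 3 the mean (0.27, adjusted p 0.101) and siSCIRT#1 (0.36, adjusted p 0.0597) did not pass, nor did siSCIRT#1 without its replicate 3 (0.37, adjusted p 0.0587). The 4 tested H3 genes all had positive changes, from 0.03 to 0.47 for the mean of both, and none passed. HIST1H3H came nearest, at 46.9, 54.2 and 43.0 in the siNC libraries, 83.2, 59.3 and 65.5 under siSCIRT#1 and 60.3, 76.4 and 57.7 under siSCIRT#2 (0.47 ± 0.19, adjusted p 0.119). The linker histones HIST1H1C (0.17 ± 0.10) and HIST1H1E (-0.25 ± 0.33) did not pass.

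No member differed between siSCIRT#1 and siSCIRT#2 by limma, edgeR or DESeq2, and none of the 22 had an unadjusted p under 0.05 in limma. Over all genes limma called 0%. Groups did not overlap for 8 members with siSCIRT#1, for 8 with siSCIRT#2 and for 5 with both together, where 28.1%, 26.5% and 18.1% of all genes did not overlap.

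**Figure D3:**
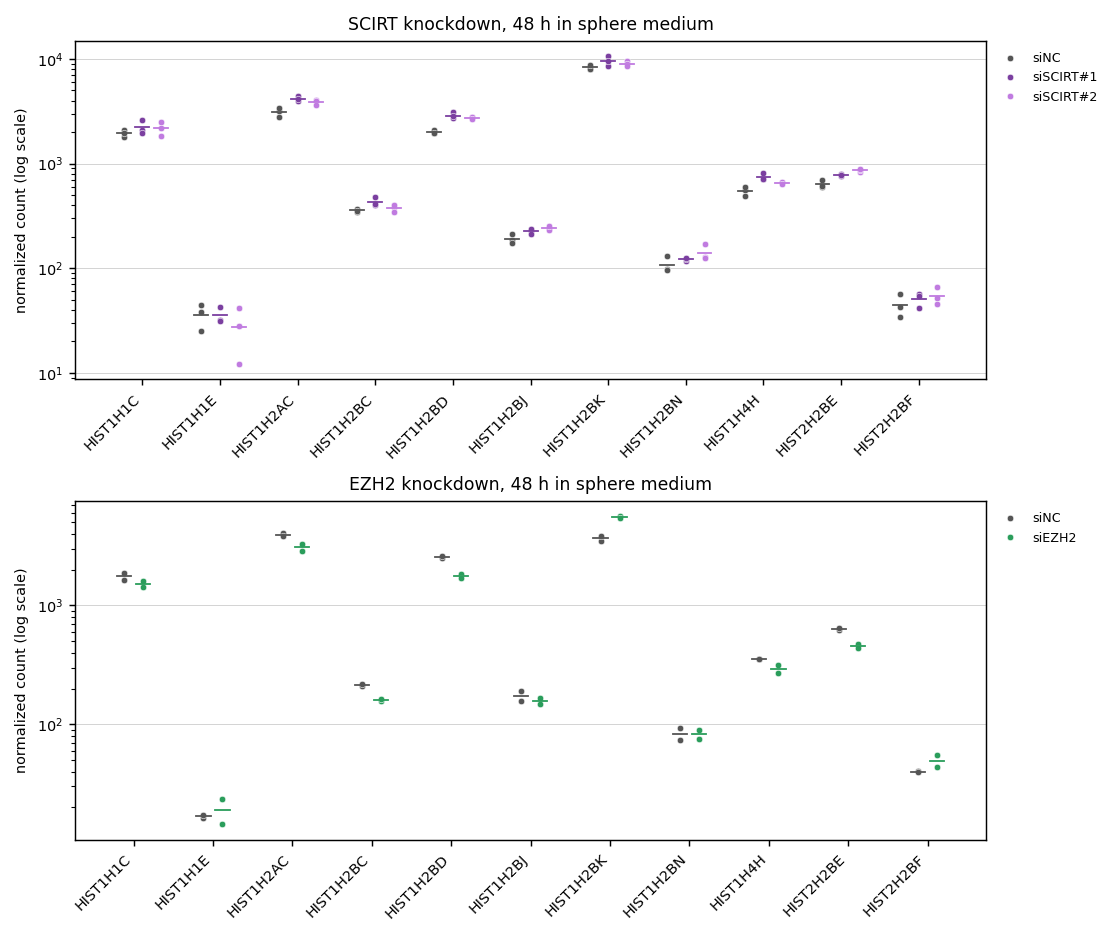
Normalized counts (log axes) of the 11 histone genes tested in all tables, in the SCIRT knockdown (top) and EZH2 knockdown (bottom) libraries, with 1 point per library and the group mean as a line. All siSCIRT libraries lie above all siNC libraries for HIST1H2AC, HIST1H2BD, HIST1H4H and HIST2H2BE, and HIST1H2BK is higher, while HIST1H2BD is lower, in both siEZH2 libraries.

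With SCIRT knocked down, most S phase genes fell, where 4 of the 22 tested histone genes rose and 18 were not called. For the mean of both siRNAs 7.58% of all genes fell and 6.82% rose. Of 24 S phase genes 23 fell for the mean of both siRNAs and none rose (median log2 fold change -0.57), with CCNA2, the S phase cyclin, at -0.90 ± 0.08 and MCM3 at -0.72 ± 0.07. Their summed normalized count was 59149 to 76958 in the siNC libraries, 43854 to 46696 under siSCIRT#1 and 45663 to 48900 under siSCIRT#2. Of the 10 histone genes tested outside the clusters none rose and 6 fell. These included H2AFZ (-0.50 ± 0.07) and H2AFX, which encodes the DNA damage histone H2A.X (-0.52 ± 0.09). Of the 17 transcription and processing genes 2 fell, with SLBP at -0.16 ± 0.06 (adjusted p 0.105), and of the 15 chaperones 8 fell and 1 rose.

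The 5 tested RNAs of the list without poly(A) tail gave no call, with a median change of 0.75. Their spread was wide, such as 200 to 568 normalized counts for RN7SK with siNC and 247 to 982 with siSCIRT#2. Of 9 tested genes annotated as snRNA 1 rose, and of 33 annotated as snoRNA 1 fell, for the mean of both siRNAs. Mitochondrial genes took 6.11% to 6.60% of reads with siNC and 5.54% to 6.11% with either siSCIRT. Of the 19 mitochondrial genes tested, 5 fell and none rose for the mean of both, where 7.58% of all genes fell and 6.82% rose. The part of these measures in the histone result was not tested.

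Under EZH2 knockdown the H2B genes went in both directions. HIST1H2BK rose 1.51-fold, and 3 other histone genes fell. In normalized counts the siNC libraries held 3475 and 3852 of HIST1H2BK, and the siEZH2 libraries 5611 and 5452, with no overlap (log2 fold change 0.60 ± 0.12, adjusted p 4.39e-05). HIST1H2BK took 26.0% and 27.5% of the histone reads in the controls but 40.5% and 42.4% under siEZH2. The 2 controls stood below every other library in that share, which was 45.1% to 49.6% in the siNC libraries of the SCIRT table, and what set them apart was not tested. All members together took 0.0406% to 0.0408% of reads in the controls and 0.0365% to 0.0397% under siEZH2. As summed normalized counts the groups overlapped, at 13365.5 to 13993.9 in the controls and 12851.3 to 13842.4 under siEZH2. Of the 19 members tested 1 rose and 3 fell (limma), where 3.9% of all 15823 genes rose and 2.94% fell, and the members' median was -0.14 against 0.01 over all genes.

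All 3 genes that fell were among the 4 that rose with siSCIRT, of which HIST1H4H was not called here. For HIST1H2BD the siNC libraries held 2486 and 2614 normalized counts and the siEZH2 libraries 1836 and 1689, which gave a log2 fold change of -0.53 ± 0.12 (adjusted p 0.000496). For HIST2H2BE they held 621 and 644, against 477 and 440 (-0.47 ± 0.14, adjusted p 0.0162). For HIST1H2AC they held 4030 and 3842, against 3268 and 2880 (-0.36 ± 0.12, adjusted p 0.0381). Neither group overlapped the other for any of these genes, as for 10 of the 19 members and 47.9% of all genes.

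Some of these calls were lost in other fits. HIST1H2AC did not pass with no filter on low values (adjusted p 0.0664). Without siNC replicate 2 none of the 3 passed, with adjusted p 0.0625 for HIST1H2BD, 0.232 for HIST2H2BE and 0.178 for HIST1H2AC, and without siNC replicate 1 or siEZH2 replicate 2 only HIST1H2BD did. HIST1H2BK passed in each of these fits. HIST1H2BC stood at 210 and 218 in the controls, against 157 and 163 (-0.42 ± 0.17, adjusted p 0.13), and HIST1H4H at 356 and 353 against 315 and 271 (-0.28 ± 0.15, adjusted p 0.313). The linker histone HIST1H1C (-0.21 ± 0.12), the H3 gene HIST1H3H (0.14 ± 0.24) and the 4 tested H4 genes (-0.93 to -0.14) did not pass. Among the tested members HIST1H2BO, HIST1H4I, HIST1H4J and HIST2H2AC had a group mean under 10.

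With EZH2 knocked down the S phase genes rose: 17 of 24 were higher and none lower (median log2 fold change 0.62), with RRM2, a ribonucleotide reductase subunit, at 1.10 ± 0.14 and E2F1 at 1.05 ± 0.15. Their summed normalized count was 14894 to 15002 with siNC and 20459 to 21541 with siEZH2. Over all genes 3.9% were called higher and 2.94% lower. Of the 10 histone genes tested outside the clusters none fell. CENPA, the centromeric H3, rose by 1.02 ± 0.22 and H2AFX by 0.50 ± 0.13. Of the chaperones 4 rose and 1 fell, with HJURP, which loads CENPA, at 1.30 ± 0.13, and none of the 17 transcription and processing genes was called (limma). SLBP stood at 0.31 ± 0.12 (adjusted p 0.109). Mitochondrial genes took 4.45% and 4.93% of reads in the siNC libraries and 4.50% in each siEZH2 library. Of the 5 listed RNAs without poly(A) tail 1, RN7SL2, was lower, and no gene annotated as snRNA or snoRNA was called.

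The responses to the 2 knockdowns were then compared in 1 fit over the 13 siRNA libraries, each against the siNC of its own table. EZH2 RNA was lower in both knockdowns, and its part in the histone responses was not tested. Of the 17 members tested in both tables, 5 had a lower response to siEZH2 than to siSCIRT and 1 a higher one (limma), where 6.51% of all 15369 genes were lower and 8.51% higher. HIST1H2BD differed by -1.02 ± 0.11 on the log2 scale (adjusted p 1.24e-06), HIST2H2BE by -0.84 ± 0.13, HIST1H2AC by -0.73 ± 0.12 and HIST1H4H by -0.62 ± 0.15. HIST1H2BC, not called in either knockdown alone, differed by -0.60 ± 0.17 (adjusted p 0.0182). This last call was lost without siEZH2 replicate 1 (adjusted p 0.0651) or the EZH2 control siNC replicate 2 (adjusted p 0.0675). HIST1H2BK differed the other way, by 0.44 ± 0.12 (adjusted p 0.0167), and did not pass without siNC replicate 3 of the SCIRT table (0.39, adjusted p 0.0502), siEZH2 replicate 1 (0.41, adjusted p 0.0676) or the EZH2 control siNC replicate 1 (0.36, adjusted p 0.106).

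**Figure D4:**
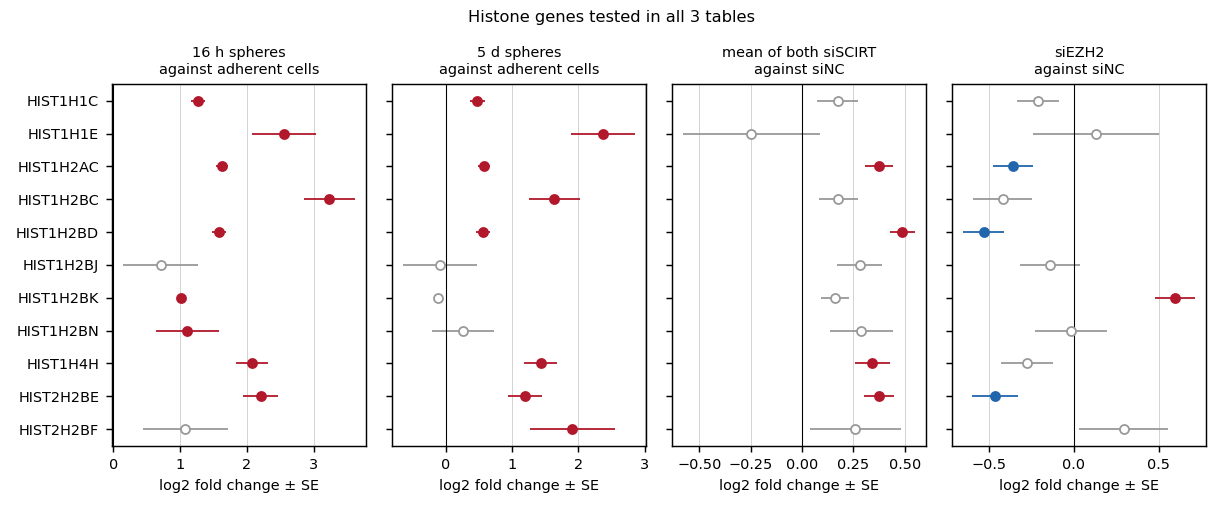
Log2 fold changes with their standard errors (limma) of the 11 histone genes tested in all 3 tables, for 16 h and 5 d spheres against adherent cells, both siSCIRT against siNC and siEZH2 against siNC. Filled red points are called higher, filled blue points lower and open points not called; each panel has its own axis, and HIST1H2AC, HIST1H2BD and HIST2H2BE are red in the first 3 panels and blue in the last.

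Members known to make polyadenylated transcripts as well accounted for most of the calls, and they included the 5 members with most reads. Of the 10 genes of that list 8 were listed, and 6 of 7 tested rose at 16 h, where 27.4% of all genes rose, and 3 of the 4 tested members outside the list rose too. At 5 d 5 of 7 and 3 of 4 were higher than in adherent cells, where 26.3% of all genes were, and 6 of 7 and 1 of 4 were lower than at 16 h, where 25.5% were. For the mean of both siSCIRT 3 of 8 rose and 1 of 14 outside the list, against 6.82% of all genes. With siEZH2 1 of 8 rose and 3 fell, against 3.9% and 2.94% of all genes, and 0 of 11 outside the list were called. Of those, 1 of the 11 had an unadjusted p under 0.05 in limma, and neither edgeR nor DESeq2 called any of them.

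The members tested in no table included the testis histones HIST1H1T, HIST1H2BA and HIST3H3, with 56, 8 and 34 reads over all libraries that list them. HIST1H4C, HIST1H4K and HIST1H3A had 109, 88 and 76 reads, and HIST2H2AB 2. HIST2H4A and HIST2H4B, near-identical copies of each other with 14 and 8 reads, share their sequence, so that reads may have been split between them. The highest mean normalized count of an untested member was 6.96 in the culture table, 9.09 in the siSCIRT table and 8.64 in the siEZH2 table. With no filter on low values, HIST1H2AJ was called higher at 5 d than in adherent cells and than at 16 h, on 2 and 4 reads in the 5 d libraries and 0 in the other culture libraries.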

How the data were processed

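RNA-seq values of 19 MDA-MB-231 libraries were analysed. Per the labels, total RNA was extracted with TRI Reagent and libraries made with TruSeq RNA v2, which does not mark strand. CASAVA 1.4, TopHat2, Partek and the build hg19 appear in the submitters' processing notes without roles. Which program counted reads, and on which annotation, is not given in the sources used here. For culture and siSCIRT, the authors deposited log2 values after a variance-stabilizing transform. For siEZH2 they deposited a linear signal, reads divided by a size factor. Linear values had been assumed for all tables. The transform was inverted exactly, and 100% of values came out as whole reads (tolerance 0.05).

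Each table was fitted alone with limma 3.58.1 (R 4.3.3, eBayes with trend and robust) on log2 of the normalized count plus 1, so that fold changes of low genes are understated for genes whose mean reached 10. Calls were made at a two-sided Benjamini-Hochberg adjusted p under 0.05 over all genes tested. The fit of the difference between knockdowns, with its alternatives, was added after the data were seen. The script was tested on simulated data. Replicate libraries differed by more than counting error in every table, with a median ratio of scatter to Poisson variance of 2 to 9.17. Replicate numbers were not used for pairing. Members and lists were chosen with earlier results of these data known. Values were given for every sample for members with most reads or the smallest adjusted p, and for other genes from up to 4 per list by smallest adjusted p, plus SLBP, NPAT, SCIRT and EZH2. RN7SK in the siSCIRT table and the cell type markers were named outside that rule, after their values were seen. Other settings were quantile normalization, a minimum mean of 50, no minimum, a pseudocount of 8, the replicate block, edgeR 4.0.16 and DESeq2 1.42.0 on recovered reads, and leaving out each library.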

Additional observations from a re-analysis of the deposited data

Results flagged for a closer look

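The change of 7 histone genes depended on the sphere time, by the limma test of 5 d against 16 h spheres. The log2 difference was -0.80 for HIST1H1C, -1.06 for HIST1H2AC, -1.60 for HIST1H2BC, -1.02 for HIST1H2BD, -1.12 for HIST1H2BK, -0.65 for HIST1H4H and -1.02 for HIST2H2BE.

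The response to siEZH2 differed from that to siSCIRT for 6 histone genes, by the test of the difference over both tables. The log2 difference was -0.73 for HIST1H2AC, -0.60 for HIST1H2BC, -1.02 for HIST1H2BD, 0.44 for HIST1H2BK, -0.62 for HIST1H4H and -0.84 for HIST2H2BE. The tables hold separate transfections with separate controls.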

How the results depend on the processing

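No called histone gene changed direction under any alternative that was run. Of the comparisons of single genes with the values reported, 1858 stayed on the same side of the threshold, 41 lost a call and 8 gained one. With 5 d spheres against adherent cells, 5 of only 6 members tested were called higher at a mean of at least 50. All 6 stayed on the same side of the threshold. With quantile normalization 1 member was called lower in that comparison. With 5 d against 16 h spheres and no filter, 2 were called higher, HIST1H2AJ and HIST1H3C, both with few reads. Leaving out 1 library gave 8 to 9 higher at 16 h, 7 to 8 higher and 0 to 1 lower at 5 d, and 6 to 9 lower for 5 d against 16 h. It gave 2 to 4 higher for siSCIRT#1, 2 to 3 for siSCIRT#2, 3 to 4 for their mean, 0 to 3 lower for siEZH2, and 0 to 1 higher and 4 to 5 lower for the difference between knockdowns. With replicate number as a block, siEZH2 lowered 1 member in place of 3 (HIST1H2AC 0.0678 and HIST2H2BE 0.0555 as adjusted p), and the mean of both siSCIRT raised 6 in place of 4, adding HIST1H1C and HIST1H2BK, the latter also with siSCIRT#1 alone (adjusted p 0.0235, and 0.0302 for the mean). Over all genes the block moved the mean of both siSCIRT from 1132 higher and 1258 lower to 2010 and 2020, siSCIRT#1 from 769 and 924 to 1543 and 1601, siSCIRT#2 from 746 and 838 to 1552 and 1558, and siEZH2 from 617 and 465 to 333 and 199, where DESeq2 gave 425 and 250. Deviations of same-numbered libraries correlated at -0.00894 to 0.0185 in culture, 0.0208 to 0.299 for siSCIRT and -0.0854 for siEZH2, so the numbers were not taken as pairs, and not every siSCIRT table library correlated best with its own number. Depth limits most members: 16 of 27 listed for culture, 22 of 44 for siSCIRT and 25 of 44 for siEZH2 had too few reads to be tested.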
